A study of Mus musculus with 7 samples.

Results

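The BCL2 family genes examined here are 10 genes of the mitochondrial pathway of cell death, taken by symbol from the deposited table of 16476 genes, and all 10 were found. They comprised 5 survival genes (Bcl2, Bcl2l1, Mcl1, Bcl2a1b and Bcl2a1d), the 2 pore-forming effectors Bax and Bak1, and 3 genes of the BH3-only class (Bcl2l11, Bid and Bbc3). The RNA was that of airspace cells, recovered by bronchoalveolar lavage from mice of strain C57BL/6 that had received the bacterial product LPS through the trachea 3 days earlier. Neutrophils were removed with antibodies before extraction. The control group, LysM Cre, had 4 libraries from mice with Cre recombinase under the lysozyme M promoter, which is active in macrophages, monocytes and neutrophils. The knockout group, Netrin1loxp/loxp LysM Cre, had 3 libraries from mice that carried the same Cre and had both copies of Ntn1, which encodes the guidance protein netrin-1, flanked by loxP sites. The comparison asks how the transcripts of airspace cells differ when cells with this Cre lack Ntn1. Whether every library stands for a different mouse is not stated, and the p-values below therefore reflect library-to-library spread that could be technical.

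In this pathway the survival proteins hold the effectors BAX and BAK in check on the outer mitochondrial membrane. BH3-only proteins respond to stress or to loss of growth factors, occupy the groove of the survival proteins and free or activate the effectors. The effectors then form pores, cytochrome c escapes, and caspases are switched on. Leukocytes in inflamed airspaces depend on this balance: MCL1 and the A1 proteins are known for supporting short-lived myeloid cells, BCL2 for supporting lymphocytes, and BIM, the product of Bcl2l11, for removing both when cytokine support ends.

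The whole reads behind the deposited values came to between 9903284 and 13353733 a library, and the members held between 59 reads (Bbc3) and 14092 reads (Mcl1) in a library. Reads of Ntn1 itself were few: 1, 4, 9 and 3 among the controls, 1, 0 and 1 among the knockouts. The log2 fold change was -1.53, and an exact permutation test (2-sided, 35 splits, smallest possible p 0.0286) gave p = 0.0571. The resident alveolar macrophage markers, 10 of 10 in the table and none at 0 in a library, summed to between 56604 and 91325 normalized counts in controls and between 74053 and 122040 in knockouts. Lyz2, the lysozyme M gene, divided the controls, at 76927 and 118781 normalized counts in replicates 1 and 4 against 770.1 and 721.3 in replicates 2 and 3, and at 909.7 to 1052 in the knockouts. Knockout replicate 1 stood apart in neutrophil markers and in erythroid markers. The 10 neutrophil markers summed to 70234 there, to 23492 and 23574 in the other knockouts, and to between 15037 and 16070 in the controls. The 6 erythroid markers summed to 136630 there, to 10585 and 6930 in the other knockouts, and to between 1254 and 26200 in the controls.

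Bcl2l11 and Bcl2 were higher in knockout libraries, and none of the other 8 members passed the test. Bcl2l11, a death-promoting gene, was 1.57-fold higher (95% interval 1.37 to 1.79), and Bcl2, a survival gene, was 1.46-fold higher (95% interval 1.26 to 1.69). Normalized counts were compared with limma on log2(value + 1) over 12963 genes with a mean of at least 10, and a gene was called at a Benjamini-Hochberg adjusted p under 0.05. The 2 called members are 20% of the 10, beside 21.7% of all genes tested called in either direction, 10.4% called higher and 11.3% called lower in knockouts. The same 2 members had groups that did not overlap, beside 33.8% of all genes tested. The share of members called was therefore near that of all genes, and the result concerns those genes singly and not the family. The median log2 fold change was 0.19 over the 10 members and 0.01 over all genes tested.

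**Figure D1:**
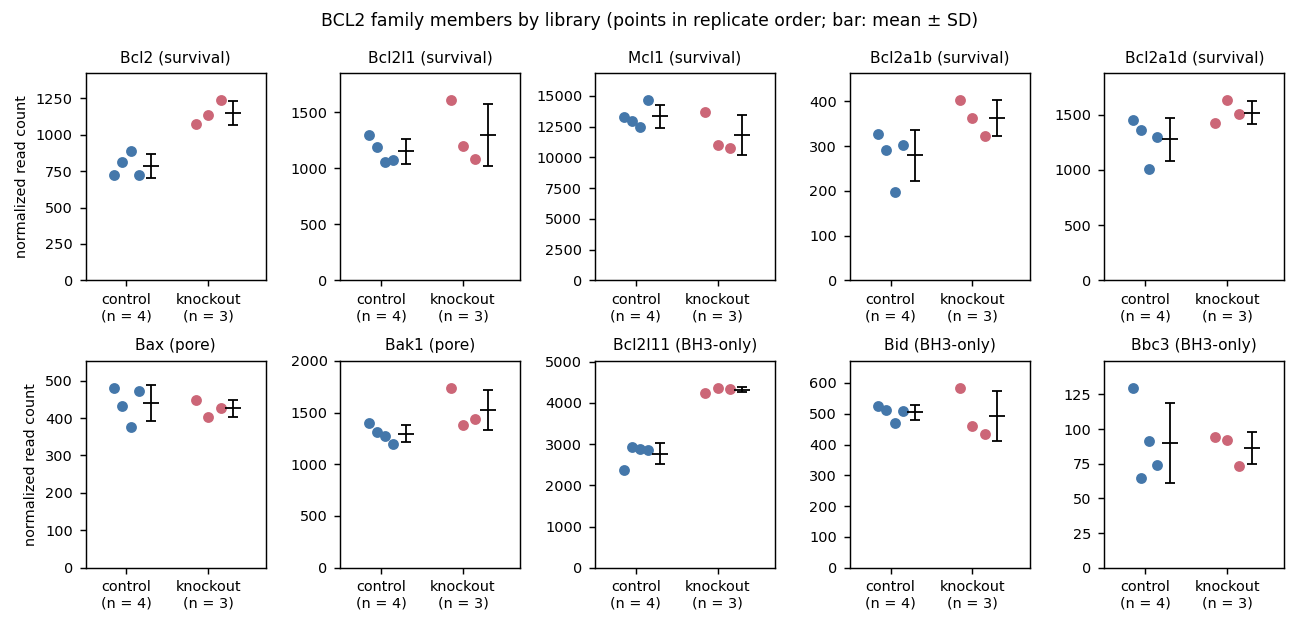
Normalized read counts (vertical axes, each from 0) of the 10 members in the 4 control libraries (blue) and 3 knockout libraries (red), with the mean ± SD as a black bar and the role of each gene in its title. For Bcl2 and Bcl2l11 every knockout point lies above every control point, and for the other 8 genes the groups overlap.

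Bcl2l11 (ENSMUSG00000027381, GRCm38 chromosome 2, 128126038 to 128162547, plus strand) encodes BIM, which binds every survival protein of the family and also activates BAX and BAK directly. Controls 1 to 4 had normalized counts of 2383, 2935, 2894 and 2853, and knockouts 1 to 3 had 4253, 4375 and 4347. All knockout libraries lay above all controls, and the knockouts were close to each other while control replicate 1 lay below the other controls. The means were 2766 ± 257.7 (SD, n = 4) and 4325 ± 64 (SD, n = 3). The log2 fold change was 0.65 (SE 0.08, limma adjusted p = 0.00178), which ranked 239 by p among all genes tested. Without both controls of high Lyz2 it was 0.57 (limma adjusted p = 0.0125), without both of low Lyz2 0.73 (limma adjusted p = 0.00973), and without knockout replicate 1 0.66 (limma adjusted p = 0.00369).

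Bcl2 (ENSMUSG00000057329, chromosome 1, 106538178 to 106714274, minus strand) is the founding survival gene of the family. Its exons share 558 bases, 6.09% of their length, with D630008O14Rik on the opposite strand, which had no row. Controls 1 to 4 had 721.1, 812.2, 891.2 and 722.3 normalized counts, and the knockouts had 1074, 1135 and 1237. The groups did not overlap, as for 17.4% of all genes tested in this direction. The means were 786.7 ± 81.7 (SD, n = 4) and 1148 ± 82.3 (SD, n = 3), with a log2 fold change of 0.55 (SE 0.09, limma adjusted p = 0.00532). Without both controls of high Lyz2 it was 0.43 (limma adjusted p = 0.0439), and without both of low Lyz2 0.67 (limma adjusted p = 0.00974). In the authors' deposited table the adjusted p was 4.5e-05 for Bcl2 and 2.63e-09 for Bcl2l11, with log2 fold changes of 0.51 and 0.62.

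The transcripts of BIM and of BCL2 changed by similar amounts. The ratio of Bcl2l11 to Bcl2 within a library, which does not depend on scaling between libraries, lay between 3.25 and 3.95 in controls and between 3.51 and 3.96 in knockouts. These ranges overlap. The ratio of Bcl2l11 to Mcl1 lay between 0.179 and 0.232 in controls and between 0.31 and 0.403 in knockouts. These ranges did not overlap, and neither did those of Bcl2l11 alone. Bcl2 relative to Bax lay between 1.498 and 2.38 in controls and between 2.39 and 2.90 in knockouts, so the ranges nearly touched. These ratios compare read counts and not molecules, and are given without a test.

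**Figure D2:**
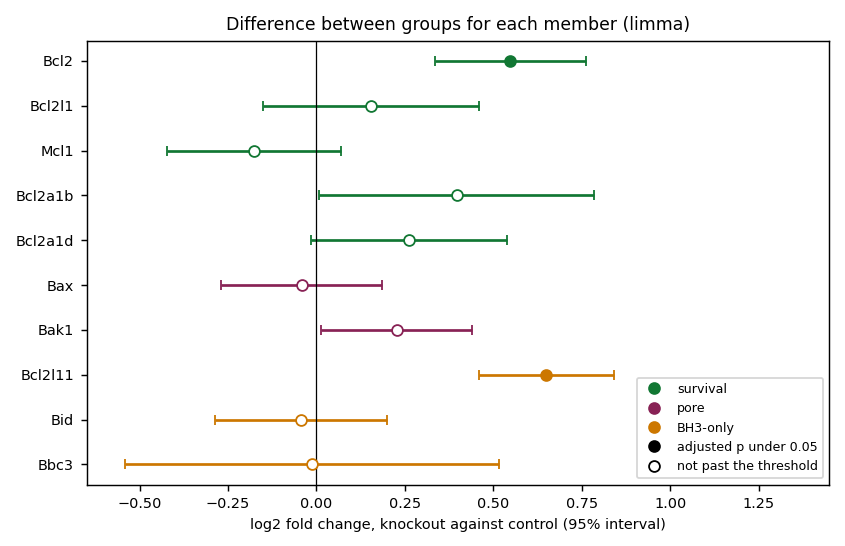
Log2 fold change of each member, knockout against control (horizontal axis), with its 95% interval from limma; colours mark survival, pore-forming and BH3-only genes and filled points have an adjusted p under 0.05. Bcl2 (0.34 to 0.76) and Bcl2l11 (0.46 to 0.84) are the filled points; the unadjusted intervals of Bcl2a1b and Bak1 also start just above 0, at 0.01, without passing after adjustment.

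Mcl1 (ENSMUSG00000038612, chromosome 3, 95658788 to 95663176, plus strand), whose protein turns over quickly and supports neutrophils and natural killer cells, was the most abundant member. Its normalized count was 13311, 12966, 12471 and 14650 in controls and 13733, 11041 and 10783 in knockouts. Knockout replicates 2 and 3 lay below every control, while knockout replicate 1, with the most neutrophil and erythroid marker transcript, lay within the control range. The log2 fold change was -0.18 (95% interval -0.42 to 0.07, limma adjusted p = 0.268). Leaving out 1 library moved it both ways, to -0.29 without knockout replicate 1 (limma adjusted p = 0.0626) and to -0.11 without knockout replicate 3 (limma adjusted p = 0.542). Without both controls of high Lyz2 it was also -0.11 (limma adjusted p = 0.633).

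Bcl2l1 (ENSMUSG00000007659, chromosome 2, 152780668 to 152831728, minus strand) encodes the survival protein BCL-XL and, by splicing, a shorter form that promotes death. The deposited values do not separate the forms. It stood at 1295, 1188, 1056 and 1073 normalized counts in controls and at 1606, 1201 and 1083 in knockouts. Knockout replicate 1 was the highest of all libraries and the other 2 knockouts lay within the control range. The log2 fold change was 0.15 (95% interval -0.15 to 0.46, limma adjusted p = 0.443), and -0.01 without knockout replicate 1 (limma adjusted p = 0.952).

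The A1 genes are copies of one survival gene, induced by NF-kB in blood cells, on mouse chromosome 9. Bcl2a1b (ENSMUSG00000089929) spans 89199209 to 89207827 on the plus strand and Bcl2a1d (ENSMUSG00000099974) spans 88723285 to 88731914 on the minus strand. Another copy, Bcl2a1a, lies between them at 88956900 to 88962419. The coding sequences of these 3 copies are 519 bases long and differ at 12 positions, so that Bcl2a1b and Bcl2a1d are 98.84% identical. The stretch that differs most is shown because it tells how little distinguishes their reads. It covers coding bases 1 to 60, 5′ to 3′, from GENCODE transcripts, with the 6 positions that differ among copies in capitals.
Bcl2a1a: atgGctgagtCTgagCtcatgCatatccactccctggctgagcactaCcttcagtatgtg
Bcl2a1b: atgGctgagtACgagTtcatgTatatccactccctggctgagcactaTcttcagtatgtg
Bcl2a1d: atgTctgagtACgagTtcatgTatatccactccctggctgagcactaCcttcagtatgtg
Of all stretches of 50 bases in the transcript, 57.55% in Bcl2a1b and 79.48% in Bcl2a1d also occur in another copy, and of stretches of 100 bases 31.06% and 54.71%. Exons of Bcl2a1b also share 401 bases, 49.1% of their length, with Gm29094 on the same strand, which had no row. The sources used here give neither the read length nor the handling of reads that match several copies or genes, so levels of single copies are uncertain.

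Neither A1 member passed the test. Bcl2a1d stood at 1448, 1363, 1004 and 1298 normalized counts in controls and at 1423, 1632 and 1507 in knockouts, with a log2 fold change of 0.26 (95% interval -0.02 to 0.54, limma adjusted p = 0.158). Bcl2a1b stood at 328, 291.6, 196.5 and 302.2 in controls and at 402.6, 363.4 and 323.4 in knockouts, with a log2 fold change of 0.40 (95% interval 0.01 to 0.79, limma adjusted p = 0.131). Control replicate 3 was the lowest library for both genes, and the groups overlapped for both by a single library of each group. Without control replicate 3 the log2 fold changes were 0.15 and 0.24. Summed over every copy in the table, the A1 genes held 2713, 2480, 1919 and 2428 normalized counts in controls and 2834, 3058 and 2801 in knockouts. All knockout sums lay above all control sums, but the difference did not pass the test (log2 fold change 0.29, 95% interval 0.04 to 0.55, limma adjusted p = 0.0954), and it was 0.19 without control replicate 3.

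The pore-forming effectors did not pass the test. Bak1 (ENSMUSG00000057789, chromosome 17, 27019810 to 27029009) was at 1395, 1316, 1269 and 1200 normalized counts in controls and 1742, 1382 and 1439 in knockouts, with a log2 fold change of 0.23 (95% interval 0.01 to 0.44, limma adjusted p = 0.116). Knockout replicate 1 was the highest library, and without it the value was 0.12. Bax (ENSMUSG00000003873, chromosome 7, 45461697 to 45466898) ranged from 375.2 to 481.4 in controls and from 402.9 to 449.2 in knockouts, so the knockouts lay inside the control range (log2 fold change -0.04, 95% interval -0.27 to 0.19, limma adjusted p = 0.796). The exons of Bak1 share 437 bases, 18.2% of their length, with Ggnbp1 on the opposite strand, and without a known strand setting such reads cannot be told apart. Those of Bax share 192 bases, 12.2% of their length, with Gm45808 on the same strand, which had no row.

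The other BH3-only members showed no difference beyond their spread. Bid (ENSMUSG00000004446, chromosome 6, 120891930 to 120916853), whose protein carries the signal from death receptors to mitochondria once caspase 8 has cut it, ranged from 470.8 to 526.1 normalized counts in controls and from 434.5 to 585.1 in knockouts. Its log2 fold change was -0.04 (95% interval -0.29 to 0.20, limma adjusted p = 0.795), and 628 exon bases, 17.7% of its length, are shared with Bcl2l13 on the opposite strand. Bbc3 (ENSMUSG00000002083, chromosome 7, 16308393 to 16318205) encodes PUMA, the main BH3-only target of p53. It was the lowest member, at 130, 64.6, 91.2 and 74 normalized counts in controls and 94.3, 92.3 and 73.2 in knockouts. With 59 to 128 reads a library, its interval was the widest of the members (log2 fold change -0.01, 95% interval -0.54 to 0.52, limma adjusted p = 0.976).

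Levels of different genes were compared per kilobase of annotated exon. Mcl1 led in every library, with 3906 ± 272.9 normalized counts per kilobase in controls (SD, n = 4) and 3468 ± 477.9 in knockouts (SD, n = 3). Bcl2a1d followed at 1481 ± 223.3 and 1762 ± 121.9. Bak1 was next at 538.1 ± 34.1 in controls, and its range over all libraries (498.6 to 723.7) overlapped that of Bcl2l11 (296.8 to 544.9). Bcl2l11, Bcl2a1b, Bax and Bcl2l1 had overlapping ranges between 230.2 and 544.9, as neighbours in the order. Bid lay below them at 142.1 ± 6.70 in controls, and its range overlapped that of Bcl2 (85.9 ± 8.92 in controls and 125.4 ± 8.99 in knockouts). Bbc3 was the lowest at 42.3 ± 13.6. Mcl1 made up between 61.5% and 67.8% of the summed level of the 5 survival members in controls and between 54.3% and 60.6% in knockouts. Bcl2, the survival member that rose, made up between 1.22% and 1.81% in controls and between 1.77% and 2.38% in knockouts. The summed level leaves out the A1 copy Bcl2a1a, which is not a member. Its mean normalized count was 822.9 in controls and 1005 in knockouts, and including it would lower both shares. The shares also rest on single A1 copies, whose levels are uncertain. Exon lengths here take in every annotated transcript, which lowers the level of genes with long untranslated ends such as Bcl2 and Bcl2l11.

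Promoter sequence was looked up for all 10 members, in 15 windows of 300 bases (250 before the start and 50 after it, RefSeq, GRCm38). FOXO factors are known to activate both Bcl2l11 and Bbc3 when growth factors are withdrawn. Their core motif GTAAACA, searched on both strands, occurred in a window of 2 of the 10 members, Bcl2l11 and Bbc3. It occurred in a window of 4.05% of all 27025 genes (3.65% of 32851 windows). As Bcl2l11 and Bbc3 were known targets beforehand, this count is not independent of that knowledge, and it was not tested. Stretches of 100 bases upstream of a RefSeq transcript start (for Bbc3 one that lies inside the gene) are shown because they set the member with the largest called difference beside one without a called difference. Capitals mark the motif, which lies on the opposite strand in Bbc3. The first is chr2:128125788-128125887 and the second chr7:16310048-16310147, both on the plus strand.
Bcl2l11: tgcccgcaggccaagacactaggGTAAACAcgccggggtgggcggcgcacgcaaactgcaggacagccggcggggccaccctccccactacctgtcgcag
Bbc3: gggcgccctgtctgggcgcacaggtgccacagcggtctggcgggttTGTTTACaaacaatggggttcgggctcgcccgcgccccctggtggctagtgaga
The STAT motif TTCNNNGAA, in 8.30% of all windows, was in 0 of the 15, as was the NF-kB consensus, in 0.155% of all windows. Of the FOXO genes themselves, Foxo3 had a log2 fold change of -0.30 (limma adjusted p = 0.0586) and Foxo1 one of 0.20 (limma adjusted p = 0.102), so neither passed the test. These are transcript levels, and the activity of FOXO proteins was not measured.

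Markers of some cell types also differed between the groups, and their association with Bcl2l11 and Bcl2 was not tested. In bulk RNA, a change in the number of cells of a type and a change in transcript per cell cannot be told apart. Over all genes tested, 10.4% were called higher and 11.3% lower in knockouts. All 12 natural killer cell markers rose. Their summed level was 11718, 18276, 18825 and 16876 normalized counts for controls 1 to 4, against 53860, 54789 and 59808 for knockouts. Control replicate 1, the lowest for Bcl2l11, was also the lowest for these markers. Among the controls it was the lowest for neutrophil, erythroid and dendritic cell markers too, and the highest for resident alveolar macrophage markers. Of 12 markers of monocytes and recruited macrophages 8 fell and 1 (Ccr2) rose, with sums of 48243 to 64799 in controls and 28023 to 38684 in knockouts. Of 10 neutrophil markers 6 rose, and 6 of 8 epithelial markers did (sums of 202.7 to 260.3 and 571.8 to 907.5). Of 10 T cell markers 1 rose (sums of 4702 to 5722 and 4672 to 6960), as did 1 of 3 B cell markers tested (386.7 to 535.4 and 528.5 to 833.5) and 1 of 6 dendritic cell markers (894.8 to 1246 and 1537 to 2596). None of 10 resident alveolar macrophage markers passed. No erythroid marker of 6 passed, with sums of 1254 to 26200 in controls and 6930 to 136630 in knockouts. Among these markers the erythroid gene Slc4a1 was at 0 in some library. The part of these cells in the levels of Bcl2l11 and Bcl2 was not tested. Knockout replicate 1, with the highest neutrophil and erythroid marker sums, had the lowest Bcl2l11 and the lowest Bcl2 of the 3 knockouts, 4253 and 1074. It also had the lowest natural killer and resident alveolar macrophage marker sums of the 3, 53860 and 74053. Its monocyte and macrophage, B cell, dendritic cell and epithelial marker sums were the highest of the 3.

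**Figure D3:**
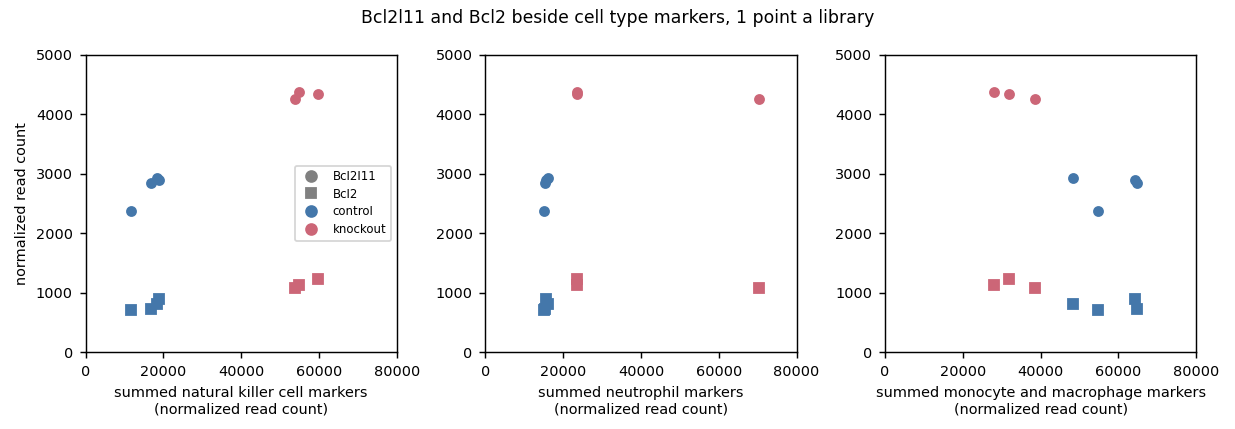
Normalized read counts of Bcl2l11 (circles) and Bcl2 (squares) on the vertical axis against the summed normalized counts of natural killer cell, neutrophil, and monocyte and macrophage markers, 1 point a library, controls blue and knockouts red. The knockouts lie apart from the controls in every panel, and the knockout at 70234 for neutrophil markers has a Bcl2l11 level of 4253, near the others.

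The other BCL2 family genes gave 2 called genes of 9 tested, both higher, and 14 had been sought. Over all genes tested 21.7% were called in either direction, which this count was near, and 10.4% were called higher. Bcl2l14, the gene of BCL-G, was at 20.3, 49.9, 64.6 and 32.6 normalized counts in controls and at 214, 88.5 and 70.5 in knockouts (log2 fold change 1.499, SE 0.46, limma adjusted p = 0.0466). Bcl2a1a was at 929.3, 821.9, 715.1 and 825.1 in controls and at 998.8, 1052 and 965.7 in knockouts (log2 fold change 0.29, SE 0.09, limma adjusted p = 0.0493). Neither call held with every library left out in turn. Of these 7 omissions, Bcl2l14 stayed called in 2, those of control replicate 3 and of knockout replicate 3, and its largest adjusted p with a library left out was 0.12, without knockout replicate 1. Bcl2a1a stayed called in 1, that of control replicate 1, and its adjusted p reached 0.152 without knockout replicate 2. Over all 19 alternatives Bcl2l14 was called in 11 and Bcl2a1a in 8. With a library left out in turn, 0 or 1 of the 9 was called. The BH3-only genes Pmaip1 (NOXA) and Bmf had log2 fold changes of -0.02 and -0.39 (limma adjusted p = 0.947 and 0.5). Bcl2l2, Bad, Bcl2l12, Bcl2l13 and Bcl2l15 did not pass, Bcl2a1c, Bok and Bik were too low to test, and Bcl2l10 and Hrk had no row. The median log2 fold change of the 9 was 0.10.

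Downstream of mitochondria, 1 of 13 genes of the apoptosome, caspases and their inhibitors rose and none fell, with a median of 0.14 on the log2 scale, beside 10.4% of all genes tested called higher. Birc2, the ubiquitin ligase cIAP1, had a log2 fold change of 0.31 (SE 0.07, limma adjusted p = 0.0194), with adjusted p = 0.0551 without control replicate 4 and 0.0642 without knockout replicate 2. The number called was 0 without either of those libraries and 2 without knockout replicate 1. Of the death receptor arm 3 of 12 genes rose and none fell (median 0.17), beside 21.7% of all genes called in either direction and 10.4% called higher. Fasl, the ligand that natural killer and T cells use to kill, averaged 309 ± 66 normalized counts in controls (SD, n = 4) and 812 ± 69.4 in knockouts (SD, n = 3) (log2 fold change 1.41, limma adjusted p = 0.00108). Tnfsf10, the gene of TRAIL, had a log2 fold change of 0.31 (limma adjusted p = 0.0151, and 0.0647 without knockout replicate 2). Casp8, the caspase that cuts BID, had one of 0.23 (limma adjusted p = 0.0355), a call that was lost on leaving out control 1, 3 or 4, or knockout 1 or 2 (adjusted p at most 0.124). The number called was 1 without knockout replicate 2.

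**Figure D4:**
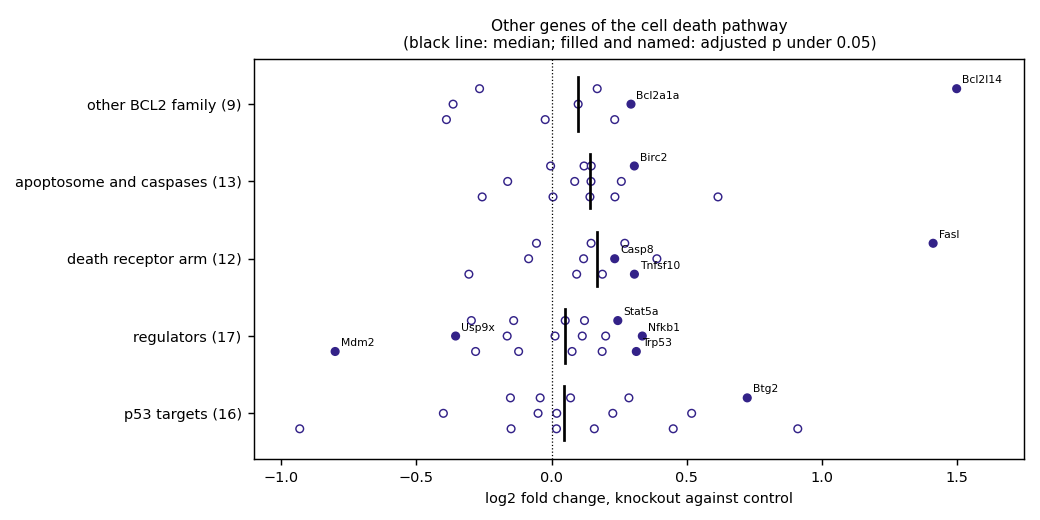
Log2 fold change, knockout against control (horizontal axis), of every tested gene in the 5 other cell death lists, 1 point a gene, with the number tested in brackets and the list median as a black line. Filled, named points have an adjusted p under 0.05; Fasl (1.41) and Mdm2 (-0.80) lie farthest out among calls that held with any single library left out.

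Among 17 regulators of BCL2 family transcription or protein turnover, 3 rose and 2 fell (median log2 fold change 0.05), beside 10.4% of all genes tested called higher and 11.3% called lower. Mdm2, the ubiquitin ligase that restrains p53, stood at 3532, 3286, 2369 and 3252 normalized counts in controls and at 1611, 1808 and 1887 in knockouts. All knockouts lay below all controls, with a log2 fold change of -0.80 (SE 0.13, limma adjusted p = 0.00484), and the call held with any single library left out. Usp9x, a deubiquitinase that stabilises MCL1, had a log2 fold change of -0.35 (limma adjusted p = 0.033), and lost its call on leaving out any control or knockout 2 (adjusted p at most 0.0829), and its value was -0.23 without knockout 1. Trp53 (0.31, limma adjusted p = 0.0165), Nfkb1 (0.34, limma adjusted p = 0.028) and Stat5a (0.25, limma adjusted p = 0.0264) rose. Without knockout replicate 2 none of these 3 was called and 1 gene of the list was, while without control replicates 1, 3 or 4 the list had 3, 3 and 2 calls. Trp53 had adjusted p = 0.0701 without knockout replicate 2. Nfkb1 had 0.1 there and was also lost without control replicate 4 or knockout replicate 3. Stat5a had 0.093 there and was also lost without control replicates 1, 3 or 4 or knockout replicate 1. Mdm2 is itself also a known p53 target, but was counted among the regulators and not in the next list. Of the 16 listed p53 targets outside the family, 1 rose and none fell (median 0.04), beside the same background. This was Btg2, an inhibitor of proliferation, which averaged 1082 ± 191.7 normalized counts in controls (SD, n = 4) and 1768 ± 113.3 in knockouts (SD, n = 3) (log2 fold change 0.72, limma adjusted p = 0.00829). Cdkn1a, the classic p53 target, had a log2 fold change of 0.02 (limma adjusted p = 0.932). The number called was 3 without control replicate 3 and 4 without knockout replicate 1.

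**Figure D5:**
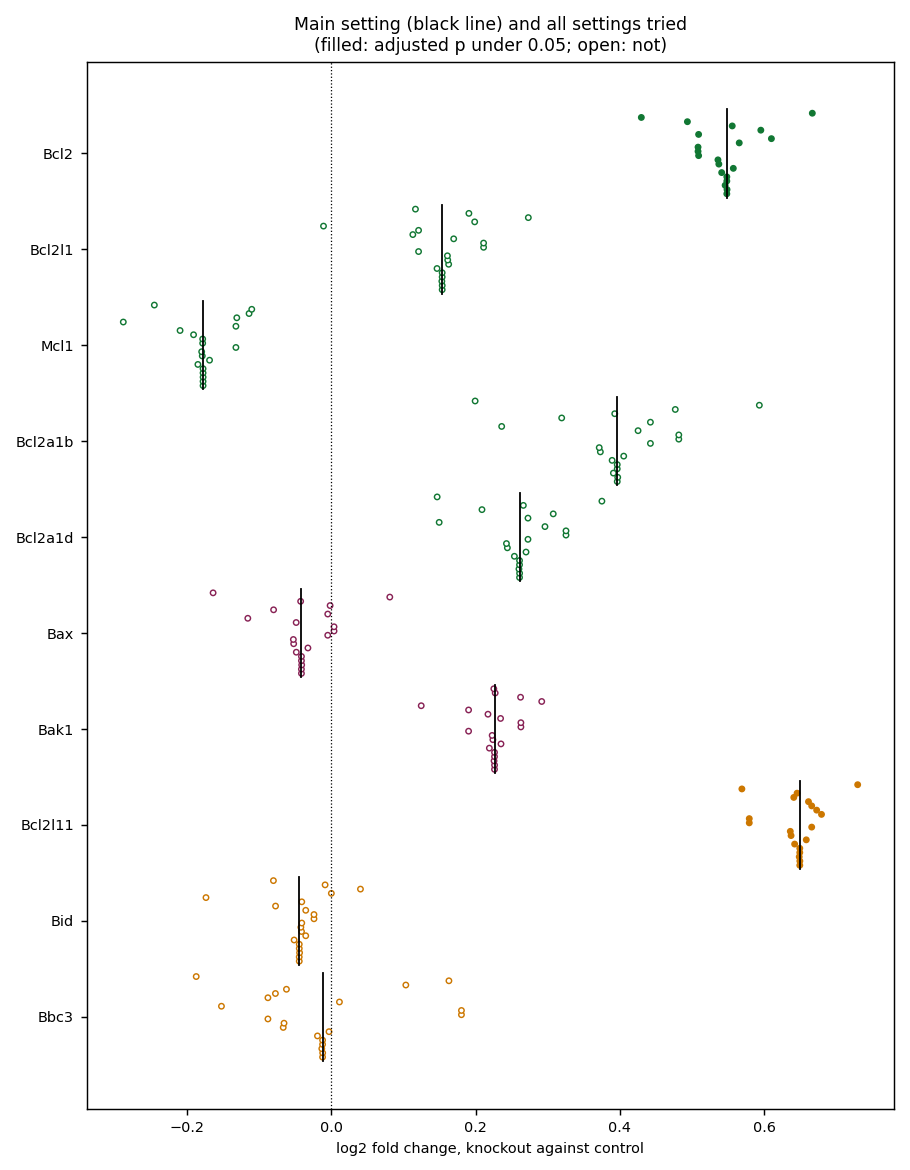
Log2 fold change of each member, knockout against control (horizontal axis), in the reported setting (black line) and in every alternative (points; filled where the adjusted p was under 0.05). Bcl2 (0.43 to 0.67) and Bcl2l11 (0.57 to 0.73) stayed past the threshold in all 19 alternatives, and none of the other 8 members passed in any.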

How the data were processed

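Per the submitters' processing notes, the authors used cutadapt 1.15, STAR 2.5.3a, HTSeq and DESeq2 with the build GRCm38 (mm10). The sources used here give no strand setting, annotation or read length. The deposited signal of each library is a read count divided by a size factor; 100% of values were whole reads within 0.01. The table also holds the authors' log2 fold changes, a score as test statistic and p-values, per the file headers. The design's limma test (limma 3.58.1, R 4.3.3, eBayes with trend, pseudocount 1, mean of at least 10) was used, as the deposited values are normalized counts. Alternatives were other pseudocounts, filters and scalings, edgeR 4.0.16 and DESeq2 1.42.0 on recovered reads, replicate blocks and libraries left out. Members and lists were chosen with earlier results of these data known. Named genes are the members and, per pathway list, up to 4 called genes a direction; Pmaip1, Bmf, Foxo1, Foxo3 and Cdkn1a were chosen after their values were seen. A gene of the apoptosome list and a B cell marker are not reported here and were left out of their lists. The pipeline was tested on simulated data. Positions and exon lengths came from GENCODE M21, and 21 symbols turned into dates were restored by identifier. Between libraries of a group the chi-square per gene was 8.51 to 35.5, so none were copies.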

Additional observations from a re-analysis of the deposited data

Results flagged for a closer look

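Bcl2l11 had 1 control library apart from the others. Control replicate 1 stood at 2383 normalized counts against 2853 to 2935 in the other controls, a gap of 0.852 of the range of the group, where 0.829 is the limit for 4 samples. Chance gives such a gap in about 1 in 20 groups, and it was found for 1 of 23 genes or sums checked. Without control replicate 1 the log2 fold change of Bcl2l11 was 0.58 (limma adjusted p = 0.00222). The same library had the lowest sum of natural killer cell markers among the controls, 11718 against 16876 to 18825. It also had the lowest control sums of neutrophil (15037), erythroid (1254) and dendritic cell markers (894.8). Its sum of resident alveolar macrophage markers, 91325, was the highest of the controls. The part of any of these cell types in the gap was not tested.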

How the results depend on the processing

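The 2 called members, Bcl2 and Bcl2l11, stayed called and higher in all 19 alternatives, and none of the other 8 was called in any. Bcl2 ranged from 0.43 to 0.67 on the log2 scale (adjusted p 4.81e-05 to 0.0494) and Bcl2l11 from 0.57 to 0.73 (3.24e-09 to 0.0255). Directions that reversed were all of uncalled members. Bcl2l1 ranged from -0.0108 (without knockout replicate 1) to 0.27 with a library left out. Bax was 0.00383 with the replicate block by column number, 0.0811 without both high-Lyz2 controls and -0.12 to 0.00383 with a library left out. Bid was -0.17 to 0.0405 and Bbc3 -0.15 to 0.18 with a library left out, and Bbc3 was 0.18 with the column number block and 0.16 without both high-Lyz2 controls.

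The genes changed numbered 2813, and 1504 to 2414 with a library left out, 1199 without both high-Lyz2 controls and 1233 without both low-Lyz2 controls. Over the same 3 settings the other BCL2 family list had 0 to 1, 0 and 1 calls (1 also with no filter), the apoptosome list 0 to 2 and 0 without the high-Lyz2 controls (2 with DESeq2), the death receptor arm 1 to 3, 1 and 1, the regulators 1 to 6, 1 and 1, and the p53 targets 1 to 4 and 2 without the low-Lyz2 controls.

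Residuals of same-numbered libraries correlated at -0.23, -0.03 and -0.19 by title number and at -0.08, -0.29 and 0.08 by column number. By title number, libraries with different numbers correlated at between -0.29 and 0.35. With so few libraries, these values cannot decide whether the numbers mark pairs. With the replicate block by title number 806 genes were called, and 0, 0, 1 and 0 in the first 4 lists. With the block by column number 1196 genes were called, and 0, 0, 1, 1 and 2 in the 5 lists. Bcl2 was 0.51 in both (adjusted p = 0.0306 and 0.0494), and Bcl2l11 0.67 and 0.58 (0.0255 and 0.0217). With 3 and 4 libraries and as few as 59 reads for Bbc3, small differences in the lowest members were not detectable.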

Other observations

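Among the members, knockout replicate 1 was the highest knockout for 7 of the 10 members and the highest of all libraries for 4 (Bcl2l1, Bcl2a1b, Bak1 and Bid). Control replicate 1 was the highest control for 7 members, and control replicate 3 the lowest control for 6. Both called members differed from this: for Bcl2 and Bcl2l11, control replicate 1 was the lowest control and knockout replicate 1 the lowest knockout. For Bcl2, however, control replicates 1 and 4 were nearly equal (721.1 and 722.3). The numbers of members were not tested or compared with other genes. Within a library, Bcl2l1 relative to Mcl1 ranged from 0.0733 to 0.0973 in controls and from 0.1 to 0.117 in knockouts, with no overlap and no test. Neither gene passed the test by itself, and the share of other gene pairs without overlap was not worked out. Bak1 relative to Bax ranged from 2.54 to 3.38 in controls and from 3.38 to 3.88 in knockouts, where the lowest knockout lay within the control range.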
